A study of Mus musculus with 6 samples.

Results

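Foxp3 and 9 genes associated with regulatory T cells (Treg cells) were followed in day 2 Th9 cultures of mouse CD4+ T cells that carried or lacked Cul5, the cullin of an E3 ubiquitin ligase. The genes were chosen by name: Foxp3, the Ikaros family genes Ikzf1, Ikzf2, Ikzf3 and Ikzf4, the surface molecules Nrp1, Lrrc32, Gpr83 and Izumo1r, and the actin-capping gene Capg. All 10 had counts in every library and passed the expression filter, and they were 10 of the 12925 genes tested and of the 22559 genes with a count. The WT group held 3 libraries of Cul5fl/fl littermates without Cre, which the labels give as genotype WT, and the Cul5 cKO group held 3 libraries of Cul5fl/flCD4-Cre mice, all on the C57BL/6 strain. The mice were 8 to 10 weeks old. CD4-Cre is active in every cell of the T lineage from the thymus on, so the deletion preceded the cultures and covered any Treg cells as well. Naive CD4+ T cells were isolated from spleen and lymph nodes (the labels name spleen) as CD25-, CD62L high and CD44 low cells, a selection that leaves out most Treg cells. Cells of both genotypes were then held for 48 h on plate-bound anti-CD3 (2 µg/ml) with soluble anti-CD28 (1 µg/ml), IL-4 (20 ng/ml), TGF-β (2.5 ng/ml) and anti-IFN-γ (10 µg/ml). The labels number the libraries 1 to 3 within each genotype without saying that each came from a separate animal, so p-values measure the spread between these libraries, which may be technical.

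Foxp3 is the forkhead transcription factor that defines Treg cells, and TGF-β together with T cell receptor signals induces it in naive CD4+ T cells. IL-4, acting through STAT6, restrains that induction and steers cells given TGF-β towards the Th9 fate, so a Th9 culture holds both an inducing and a restraining signal for Foxp3. Ikaros family proteins are zinc finger factors that bind DNA as dimers, and several of them work beside Foxp3 in Treg cells. The surface molecules of the set are used to identify Treg cells or serve their suppressive function.

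Sequences around the start sites of Foxp3 are shown because its transcripts begin at more than 1 site. That of Gpr83 is shown as an example of a surface gene that, like Foxp3 and Izumo1r, was highest in replicate 1 of each genotype. Each window runs from 250 bases before a RefSeq start site to 20 bases into the transcript, in the GRCm38.p6 build, 5′ to 3′ on the strand of the gene. Of the 10 genes, 6 had such a window. That of Izumo1r is not printed, because its leading transcript begins inside the window. The upstream Foxp3 window is printed although it, too, is transcribed in part. Within it, the transcript Foxp3-206 begins at chrX:7579567 and Foxp3-203 at chrX:7579669. The Foxp3 windows lie on the plus strand at chrX:7579426-7579695 and chrX:7580233-7580502 and that of Gpr83 on the plus strand at chr9:14859960-14860229.
Foxp3, upstream start: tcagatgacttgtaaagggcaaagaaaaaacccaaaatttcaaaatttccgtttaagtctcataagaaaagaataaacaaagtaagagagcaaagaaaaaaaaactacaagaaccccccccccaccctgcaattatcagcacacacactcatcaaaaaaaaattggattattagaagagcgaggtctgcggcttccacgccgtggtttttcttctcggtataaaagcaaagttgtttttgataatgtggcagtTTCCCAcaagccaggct
Foxp3, downstream start: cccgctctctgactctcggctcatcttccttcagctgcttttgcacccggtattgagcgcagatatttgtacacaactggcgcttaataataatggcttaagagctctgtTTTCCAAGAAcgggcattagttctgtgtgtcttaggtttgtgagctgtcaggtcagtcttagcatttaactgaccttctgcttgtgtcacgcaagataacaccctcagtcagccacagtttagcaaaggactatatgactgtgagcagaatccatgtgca
Gpr83: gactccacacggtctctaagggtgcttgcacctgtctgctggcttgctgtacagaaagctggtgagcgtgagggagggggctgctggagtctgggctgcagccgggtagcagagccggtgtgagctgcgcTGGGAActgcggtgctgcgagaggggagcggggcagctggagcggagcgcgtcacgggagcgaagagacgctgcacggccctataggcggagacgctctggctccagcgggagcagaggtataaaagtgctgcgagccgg
Capitals mark matches, on either strand, to a set of 6 short motifs. These were TGGGAA for Ikaros proteins, TTCNNNGAA for STAT factors, GTAAACA for forkhead factors, TGGAAA for NFAT, TGANTCA for AP-1 and TGACGTCA for CREB. The Ikaros motif was present once in the upstream Foxp3 window and once in the Gpr83 window, and in 23.1% of 32851 RefSeq windows of the same length. In the upstream Foxp3 window the match lies past the RefSeq start site, inside the transcript. The downstream Foxp3 window held an NFAT match and a STAT match that overlapped each other. NFAT matches occurred in 19.8% of all windows and STAT matches in 7.58%. Among the windows not printed, that of Izumo1r held 1 NFAT match and no Ikaros match, that of Capg held 2 Ikaros matches, and those of Ikzf1 and Nrp1 held no match to any of the motifs. None of the windows held a match to the forkhead, AP-1 or CREB motif, which were present in 3.38%, 7.23% and 1.73% of all windows, respectively. A match describes the letters only, and binding was not measured.

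Estimated counts summed to 23111689 to 23454552 in 5 libraries and to 3944803 in WT replicate 3, so values in that library carry more counting error. Levels between libraries are given as CPM, the counts per 1000000 counts of a library size adjusted with the TMM method of edgeR, and 3 counts corresponded to 0.128 to 0.133 CPM in the 5 deep libraries and to 0.759 CPM in WT replicate 3. Cul5 itself averaged 66.2 ± 2.67 CPM in WT libraries and fell to 12.6 ± 1.82 CPM in those of Cul5 cKO (SD, n = 3 each; log2 fold change -2.39, SE 0.11), which fits the labels of all 6 libraries. Across all tested genes, 133 of 12925 (1.03%) differed between genotypes at an adjusted p under 0.05 by the quasi-likelihood test of edgeR, adjusted by Benjamini-Hochberg. Replicate 1 of both genotypes stood apart: WT replicate 1 lay nearer to the Cul5 cKO library of that number (median absolute log2 difference 0.12) than to either other WT library (0.16). Results are therefore also given for replicates 2 and 3 alone, where 1153 of 13055 genes (8.83%) were called, and with replicate 1 as a term of the model, where 1688 genes (13.1%) were called. Markers of other cells were low but uneven between libraries. The sum of 5 B cell markers was 48.0 CPM in Cul5 cKO replicate 3 and 6.47 to 19.2 CPM in the other 5 libraries, that of 5 myeloid markers was 10.3 CPM in Cul5 cKO replicate 2 and 2.43 to 3.13 CPM elsewhere. The 4 NK cell markers, 2 of which were at 0 in every library, summed to 4.10 to 9.60 CPM in WT and ranged from 5.82 to 13.0 CPM in Cul5 cKO, highest in replicate 2, and the 2 CD8 markers to 11.6 CPM in Cul5 cKO replicate 3 and 4.30 to 6.53 CPM elsewhere. The 5 T cell markers, Cd4 among them, summed to 1064 to 1135 CPM in WT and, without overlap, to 972 to 1047 CPM in Cul5 cKO. The part of these marker levels in the results was not tested. In these bulk cultures, fewer cells expressing a gene and less of its RNA per cell cannot be told apart.

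By their WT level, the 10 genes ran from above 13.8% to above 98.6% of all tested genes. On the length-scaled TPM scale, the WT means ran in the order Capg (749 ± 31.2), Izumo1r (490 ± 48.6), Ikzf1 (260 ± 38.7), Foxp3 (214 ± 24.3), Ikzf4 (96.4 ± 10.3), Ikzf3 (69.7 ± 11.4), Gpr83 (50.9 ± 12.7), Nrp1 (38.7 ± 4.30), Lrrc32 (31.6 ± 6.88) and Ikzf2 (1.25 ± 0.250; SD, n = 3). Neighbours in this order overlapped between single WT libraries for Ikzf1 and Foxp3, for Ikzf3 and Gpr83, for Gpr83 and Nrp1, and for Nrp1 and Lrrc32, so their order is not resolved beyond the spread. Foxp3 lay above 95.2% of the tested genes in WT, whereas Ikzf2, which encodes Helios and is typical of Treg cells made in the thymus, lay above 13.8%. For comparison, TPM values averaged 40.4 ± 0.687 for Gata3, the Th2 factor, in the same WT cultures. The order in Cul5 cKO was the same except that Ikzf3 (85.4 ± 12.5) stood above Ikzf4 (79.7 ± 5.44), and these overlapped.

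**Figure D1:**
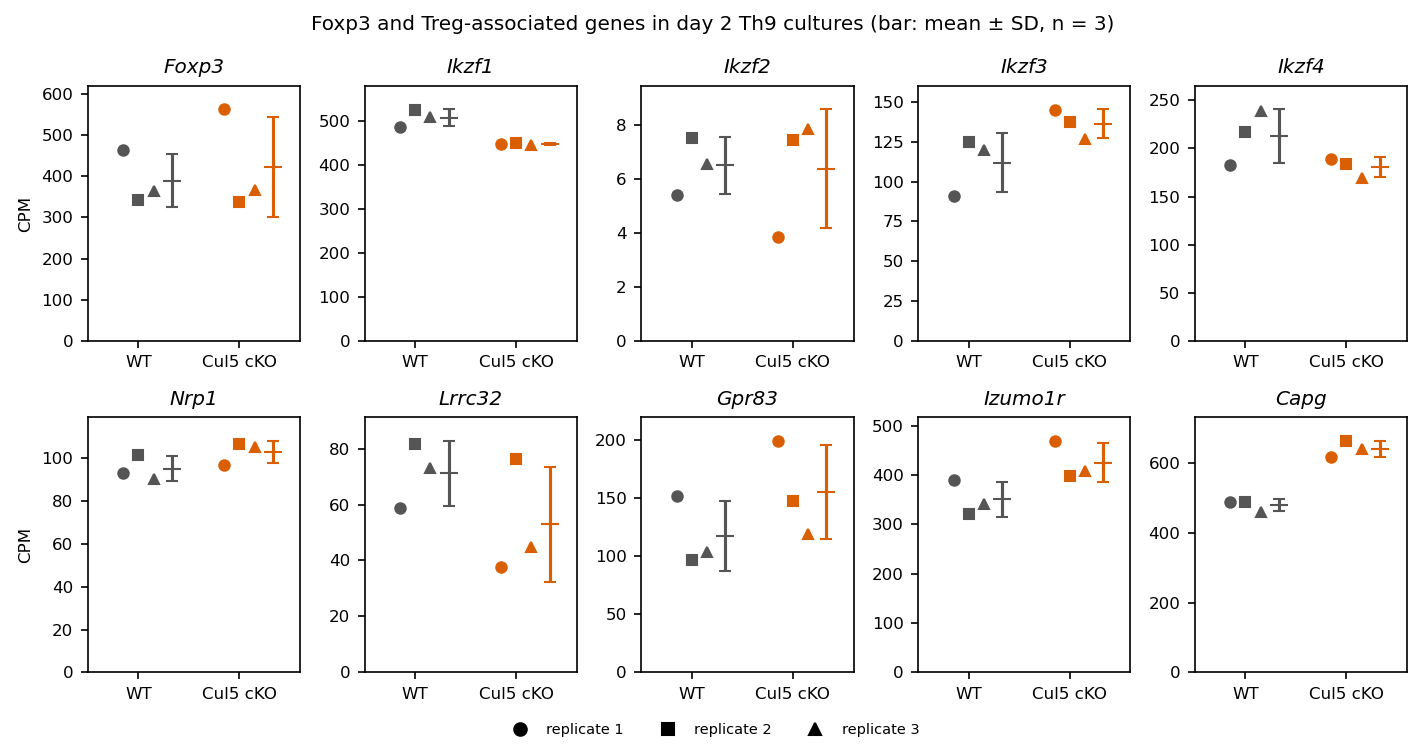
Level of each gene in CPM (y axis, from 0) in the 3 WT (grey) and 3 Cul5 cKO (orange) libraries, with the replicate number as the symbol and the mean ± SD beside the points. Capg, Izumo1r and Ikzf3 lay higher in every Cul5 cKO library than in any WT library and Ikzf1 lay lower, while Foxp3 was highest in replicate 1 of both genotypes.

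No difference in Foxp3 RNA was detected between WT and Cul5 cKO cultures. Its level was 463, 341 and 363 CPM in WT replicates 1 to 3 and 563, 338 and 367 CPM in Cul5 cKO replicates 1 to 3. The groups overlapped fully, with replicate 1 highest in each and the remaining 4 libraries between 338 and 367 CPM. The log2 fold change of Cul5 cKO over WT was 0.12 (SE 0.20, 95% interval -0.36 to 0.60, edgeR adjusted p = 0.777), and the exact permutation test gave p = 0.7, where the smallest p that 3 against 3 allows is 0.1. With replicates 2 and 3 alone the difference was 0.01 (SE 0.07, adjusted p = 0.975) and with replicate 1 as a term it was 0.10 (SE 0.07, adjusted p = 0.401). The sign turned, to -0.14, when Cul5 cKO replicate 1 was left out. Limma on the deposited gene-level log2 CPM gave 0.22 (SE 0.25, adjusted p = 0.683). The Foxp3 values may also hold reads of Flicr, an overlapping non-coding RNA described below with the transcripts.

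None of the 4 Ikaros family genes passed the test with all 6 libraries. Ikzf1, which encodes Ikaros, was at 487, 527 and 511 CPM in WT and at 448, 450 and 447 CPM in Cul5 cKO. The Cul5 cKO values lay close together and all below WT, by -0.18 on the log2 scale (SE 0.05, adjusted p = 0.134). That difference depended on the scale, since counts scaled from TPM gave 0.00958 (adjusted p = 0.983). Ikzf3, which encodes Aiolos, was at 91.1, 125 and 120 CPM in WT and at 145, 138 and 127 CPM in Cul5 cKO, which is 0.29 on the log2 scale (SE 0.12, adjusted p = 0.239). The groups did not overlap, although WT replicate 2 and Cul5 cKO replicate 3 were nearly level, and with replicates 2 and 3 alone the log2 fold change was 0.11.

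Ikzf4 encodes Eos, a co-repressor that partners Foxp3. Its level was 183, 217 and 238 CPM in WT and 189, 183 and 169 CPM in Cul5 cKO, so that WT replicate 1 lay within the Cul5 cKO range. Its fitted difference was -0.23 on the log2 scale (SE 0.10, adjusted p = 0.246) with all libraries and -0.36 (SE 0.07, adjusted p = 0.0397) with replicates 2 and 3 alone, where Ikzf4 was called lower in Cul5 cKO. With replicate 1 as a term it was not called (-0.22, adjusted p = 0.149), and without the shallow WT replicate 3 the value was -0.15. Ikzf2 was scarce, with 127, 174 and 26 estimated counts in WT and 89, 170 and 177 in Cul5 cKO. These correspond to 5.42, 7.53 and 6.58 CPM and to 3.87, 7.45 and 7.87 CPM, and the groups overlapped. Its log2 fold change was -0.02 (SE 0.29, 95% interval -0.71 to 0.66) with an adjusted p of 0.975, so changes within that interval were not resolved from the spread between libraries.

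Of the surface molecules, Izumo1r and Gpr83 had higher means in Cul5 cKO but did not pass the test in the fit on genotype alone, and their calls depended on how replicate 1 was treated. Izumo1r, also known as folate receptor 4, is abundant on Treg cells and on anergic CD4+ T cells. It was at 390, 322 and 341 CPM in WT and at 470, 398 and 407 CPM in Cul5 cKO. The groups did not overlap, by a narrow gap between WT replicate 1 and Cul5 cKO replicate 2. The log2 fold change was 0.28 (SE 0.10, 95% interval 0.05 to 0.50, adjusted p = 0.171), and Izumo1r was called higher with replicates 2 and 3 alone (0.29, adjusted p = 0.0432) and with replicate 1 as a term (0.28, adjusted p = 0.0175). Gpr83, a G protein-coupled receptor enriched in Treg cells, was at 151, 96.6 and 104 CPM in WT and at 199, 148 and 119 CPM in Cul5 cKO. The groups overlapped only through WT replicate 1, the highest WT library. Its log2 fold change was 0.40 (SE 0.23, adjusted p = 0.357), and it was called with replicate 1 as a term (0.41, SE 0.09, adjusted p = 0.0247) but not with replicates 2 and 3 alone (0.42, SE 0.11, adjusted p = 0.0632). Without Cul5 cKO replicate 1 its log2 fold change was 0.18, without WT replicate 2 it was 0.27, and without WT replicate 1 it was 0.64. The genes are neighbours on chromosome 9, Gpr83 at chr9:14860210-14870789 on the plus strand and Izumo1r at chr9:14885814-14903949 on the minus strand, with 15024 bases between them.

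Lrrc32 and Nrp1 gave no call in any of these fits. Lrrc32 encodes GARP, which holds latent TGF-β on the surface of activated Treg cells. Its level was 58.7, 81.7 and 73.1 CPM in WT and 37.8, 76.3 and 44.7 CPM in Cul5 cKO. Replicates 1 and 3 of Cul5 cKO lay below all WT libraries, but replicate 2 lay between them. The log2 fold change was -0.42 (SE 0.26, 95% interval -1.04 to 0.19, adjusted p = 0.393), and with single libraries left out it ran from -0.23 (without Cul5 cKO replicate 1) to -0.78 (without Cul5 cKO replicate 2, the library with the raised myeloid markers). Nrp1, a receptor for semaphorins and VEGF that marks Treg cells made in the thymus, was at 93.3, 102 and 90.3 CPM in WT and at 97.1, 107 and 105 CPM in Cul5 cKO, which overlapped (log2 fold change 0.11, SE 0.07, adjusted p = 0.419).

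Capg was the gene of the set that rose in Cul5 cKO at the threshold in the fit on genotype alone. Capg caps the growing ends of actin filaments and belongs to the gelsolin family; its RNA is part of Treg expression signatures and is also abundant in myeloid cells. It was at 491, 489 and 460 CPM in WT and at 618, 665 and 641 CPM in Cul5 cKO. Every Cul5 cKO library lay above every WT library, and the means of 480 ± 17.5 and 641 ± 23.8 CPM differed by 1.34-fold. The log2 fold change was 0.42 (SE 0.06, 95% interval 0.28 to 0.55, adjusted p = 0.0249), and it was 0.46 (adjusted p = 0.0190) with replicates 2 and 3 alone. Its size held between 0.39 and 0.45 when single libraries were left out, while the adjusted p passed the threshold without WT replicate 1 (0.0339) or Cul5 cKO replicate 1 (0.0485) and missed it without WT replicate 2 (0.110), WT replicate 3 (0.126), Cul5 cKO replicate 2 (0.102) or Cul5 cKO replicate 3 (0.141). The call was also lost, at 0.37 to 0.43, with counts scaled from TPM (adjusted p = 0.114) and with limma on the deposited log2 CPM (0.0810), on log2(TPM + 1) (0.110) and on log2(TPM + 0.1) (0.103). Without Cul5 cKO replicate 2, where myeloid markers were raised, the log2 fold change was 0.40. The part of those markers in the Capg values was not tested.

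In all, 1 of the 10 genes was called, beside 1.03% of all tested genes, and 9 were not. At an unadjusted p under 0.05 there were 3 (Capg and Izumo1r higher, Ikzf1 lower), beside 21.3% of all genes. Groups of 3 values that did not overlap were found for 4 of the 10 genes and for 27.5% of all tested genes, a share from which nothing particular to these genes follows. With replicates 2 and 3 alone, Capg and Izumo1r were called higher and Ikzf4 lower, beside 8.83% of genes. The median log2 fold change of the 10 genes was 0.12, with 6 positive and 4 negative, and that of all tested genes was -0.01.

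**Figure D2:**
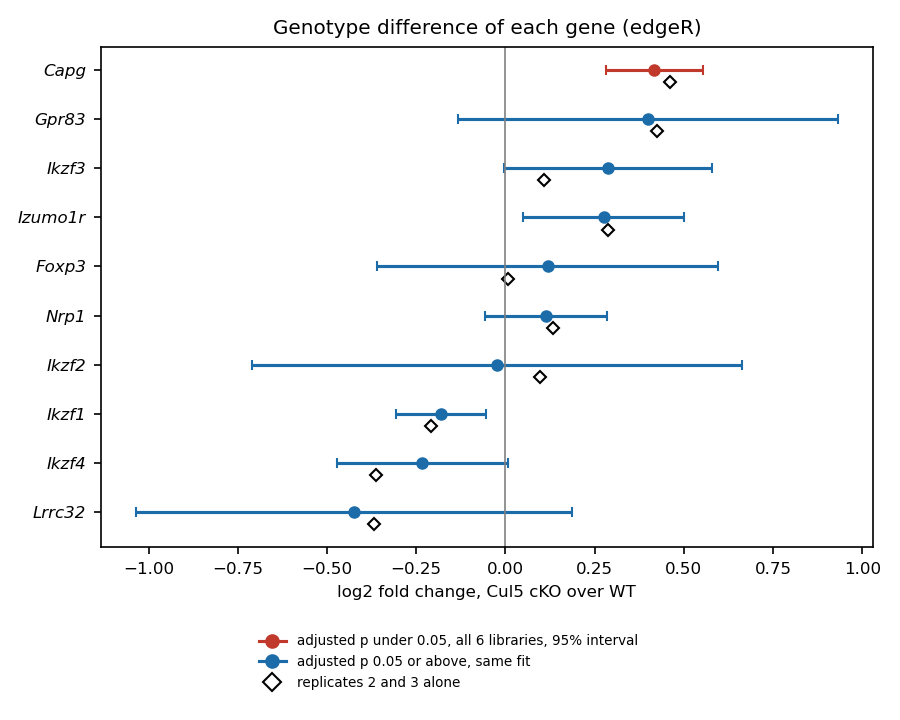
Log2 fold change of Cul5 cKO over WT (x axis) for each gene (y axis, sorted) from all 6 libraries, with its 95% interval; red marks an adjusted p under 0.05 and open diamonds give the value from replicates 2 and 3 alone. Capg (0.42) was the gene called, and the diamond of Foxp3 lies at 0.01.

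Replicate 1 differed from replicates 2 and 3 for several of these genes, which is given as a description of the libraries. Foxp3 was higher in replicate 1 than in the mean of the others by 0.39 in WT and 0.67 in Cul5 cKO on the log2(CPM + 1) scale. Gpr83 was higher by 0.59 and 0.58 and Izumo1r by 0.24 and 0.22. Lrrc32 went the other way, at -0.39 and -0.62, and so did Ikzf2, at -0.32 and -0.83. Thus 3 genes lay above and 2 lay below both other replicates in both genotypes, beside 23.4% and 22.0% of all tested genes. Nr4a1, a factor induced by T cell receptor signals and chosen here after its values were seen, was lower in replicate 1 by -3.42 in WT and -2.96 in Cul5 cKO, and Il2, chosen in the same way, by -2.10 and -2.99. Of the other genes looked at with them, Nr4a3 (-1.70 and -2.13) and Rel (-1.17 and -1.09) were also lower. Ctla4 went the other way, at 0.63 in WT and 0.74 in Cul5 cKO. The part of these genes in the Foxp3 values was not tested.

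**Figure D3:**
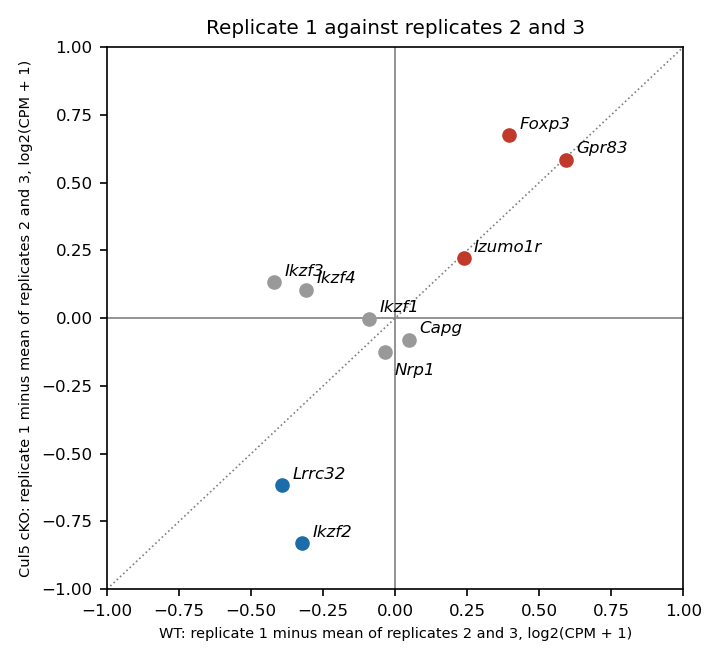
Difference between replicate 1 and the mean of replicates 2 and 3 on the log2(CPM + 1) scale in WT (x axis) and Cul5 cKO (y axis) for each gene; red and blue mark genes whose replicate 1 lay above or below both others in both genotypes. Foxp3, Gpr83 and Izumo1r fall in the upper right and Lrrc32 and Ikzf2 in the lower left.

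Genes with the most similar pattern were sought by the standard deviation (SD) of the log2 ratio of their CPM to that of Foxp3 over the 6 libraries, among 9656 genes averaging 5 CPM or more. The lowest values belonged to Stx2, a syntaxin of membrane fusion (0.0685), Trove2, an RNA-binding protein (0.0727), and Slc25a24, a mitochondrial carrier (0.0732), where the median of all genes was 0.325. Stx2, for example, was at 13.6, 9.13 and 10.4 CPM in WT and at 15.9, 9.03 and 9.56 CPM in Cul5 cKO, again highest in both libraries numbered 1. Of the other 9 genes of the set, Izumo1r came nearest to Foxp3 (0.203) and Lrrc32 was farthest (0.704).

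The leading Foxp3 transcripts held overlapping shares in both genotypes, while a minor one, Foxp3-202, did not overlap. Which transcript led depended on the scale. By shares of length-scaled TPM, Foxp3-206 averaged 38.1% in WT and 38.1% in Cul5 cKO, and Foxp3-203 averaged 32.5% and 33.2%. The leading transcript by estimated counts, Foxp3-203, took 49.9, 48.8 and 41.8% of the gene's estimated counts in WT and 45.2, 46.1 and 47.5% in Cul5 cKO (exact permutation p = 0.9), and Foxp3-206 took 28.7 to 34.4%. Foxp3-207, annotated as a target of nonsense-mediated decay, took 7.84 to 14.7%. Foxp3-202, the transcript that begins at the downstream start shown above, took 5.43, 4.26 and 2.62% in WT and 11.1, 7.70 and 7.84% in Cul5 cKO, so its groups did not overlap. The mean shares were 4.10 ± 1.41% and 8.88 ± 1.92%. It was singled out after its values were seen. Its exon at chrX:7580483-7580578, 96 bases long, is the only sequence not held by another Foxp3 transcript, and all 96 bases also lie in an exon of Flicr, a non-coding RNA on the same strand whose transcripts were not among those quantified. Reads of Flicr and Foxp3-202 there cannot be told apart. Over all its transcripts, Foxp3 shares 853 exonic bases with Flicr, 178 of them in Foxp3-203 and 159 in Foxp3-206. Reads of Flicr may therefore enter the Foxp3 total as well. Foxp3 also shares 590 exonic bases with Ccdc22 (41.0 to 55.8 CPM), 266 with Ppp1r3f (13.9 to 22.6 CPM) and 373 with Gm36995, which was not quantified. These genes lie on the opposite strand, and whether the libraries kept strand is not given in the sources used here.

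**Figure D4:**
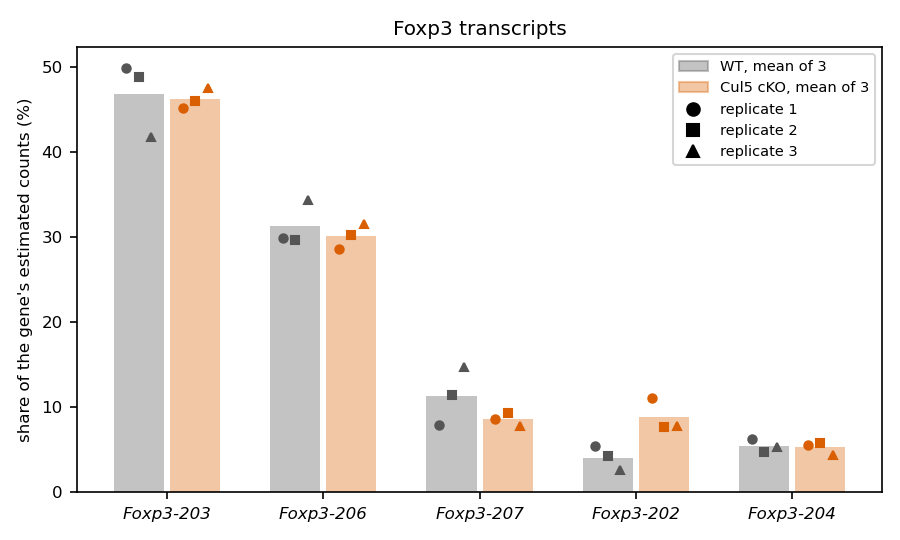
Share of the Foxp3 estimated counts (y axis, percent, from 0) given to each transcript with a mean share of at least 2%, with bars for the mean of 3 libraries and symbols for single libraries, in WT (grey) and Cul5 cKO (orange). By this measure Foxp3-203 led in all 6 libraries, at 41.8 to 49.9%. Foxp3-202 was higher in every Cul5 cKO library than in any WT library.

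For the whole set, 33 transcripts had a mean share of at least 2%, and the groups did not overlap for 2 of them, Foxp3-202 and Ikzf4-201, beside 12.0% of 28631 such transcripts of all genes. Ikzf4-201, the leading Ikzf4 transcript, took 79.4, 77.5 and 72.4% in WT and 80.6, 80.6 and 79.8% in Cul5 cKO (exact permutation p = 0.1, the smallest possible). The difference of 3.91 percentage points was 1.92 without WT replicate 3, and the groups overlapped when shares were taken from TPM. By estimated counts, Ikzf1 was carried by Ikzf1-203 (mean 51.6% in WT and 52.0% in Cul5 cKO) and Ikzf1-204 (37.1 to 40.9%), and Capg by Capg-201 (64.0 to 67.2%). Gpr83 was divided between Gpr83-201 (44.6 to 51.2%) and Gpr83-202 (38.7 to 44.8%). By TPM shares Gpr83-202 stood first (means 47.0% in WT and 49.3% in Cul5 cKO), above Gpr83-201 (45.2% and 43.4%). The leading transcript of the remaining 5 genes held 80.1 to 98.9% of their counts in every library. Shares of TPM were lower for some of them, such as Ikzf3-201, at a mean of 54.2% in WT and 53.7% in Cul5 cKO. By TPM shares Ikzf2-201 averaged 74.1 ± 9.49% in WT and 89.7 ± 4.66% in Cul5 cKO, without overlap, whereas its count shares overlapped. Ikzf2 had few counts, and the rate of such separations over all genes was not taken for TPM shares. In the shallow WT replicate 3, Capg-204 took 15.9%, against 2.55 to 4.93% in the other 5 libraries, although the total of Capg there (460 CPM) was near that of the other WT libraries. Single-end reads of 50 bp separate transcripts only where their sequences differ.

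The wider Treg programme was read from 10 lists of related genes, of which 128 of 142 genes were tested. In the fit on genotype alone, Ccr8 was the 1 gene of these called, beside 1.03% of all genes, and it rose in Cul5 cKO. Ccr8, a chemokine receptor found on Treg and Th2 cells, was at 276, 326 and 262 CPM in WT and at 438, 428 and 446 CPM in Cul5 cKO (log2 fold change 0.60, SE 0.09, adjusted p = 0.0298). All Cul5 cKO libraries lay above all WT libraries. With single libraries left out the log2 fold change was 0.54 to 0.70, and the adjusted p missed the threshold without WT replicate 2 (0.0643), WT replicate 3 (0.126), Cul5 cKO replicate 1 (0.0587), Cul5 cKO replicate 2 (0.0916) or Cul5 cKO replicate 3 (0.153). It was also missed with counts scaled from TPM (0.119) and with limma on the deposited log2 CPM (0.0710), on log2(TPM + 1) (0.117) and on log2(TPM + 0.1) (0.110). Ccr8 was called with replicates 2 and 3 alone (0.57, adjusted p = 0.0344) and with replicate 1 as a term (0.60, adjusted p = 0.00761). The call also held without WT replicate 1 (adjusted p = 0.0475). Of the 20 tested Treg surface and effector genes, 19 were not called and the median log2 fold change was 0.17. Il10, an anti-inflammatory cytokine, was at 7.34, 1.99 and 4.05 CPM in WT and at 24.0, 17.0 and 10.2 CPM in Cul5 cKO (log2 fold change 1.91, SE 0.50, adjusted p = 0.110), and with replicates 2 and 3 alone it was called higher (2.42, adjusted p = 0.0284). In that fit, 3 of the 20 were called higher (Ccr8, Il10 and Tnfrsf4) and 2 lower (Ctla4 and Tnfrsf9), beside 8.83% of all genes.

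Regulators of Foxp3 gave no call in the fit on genotype alone, whereas several were called once replicate 1 was a term or was left out. Among 26 inducers of Foxp3, 19 log2 fold changes were negative and the median was -0.14. Ets1, a factor that binds the Foxp3 locus, was at 779, 869 and 887 CPM in WT and at 664, 666 and 637 CPM in Cul5 cKO (log2 fold change -0.37, SE 0.07, adjusted p = 0.0547). Runx3, which acts with Cbfb at Foxp3, went the other way (0.42, SE 0.08, adjusted p = 0.0687). With replicates 2 and 3 alone, 8 of the 26 were called, Runx3 and Smad3 higher and Bcl11b, Ets1, Nfatc1, Rel, Satb1 and Tet3 lower, beside 8.83% of all genes. Among 14 restrainers of Foxp3 the median was -0.01. The lowest p values there belonged to the kinase Akt1 (0.26, SE 0.05, adjusted p = 0.0694) and the hypoxia factor Hif1a (0.49, SE 0.10, adjusted p = 0.0724), both higher in all 3 Cul5 cKO libraries than in any WT library. With replicates 2 and 3 alone, 4 of the 14 were called, Akt1 (0.27, adjusted p = 0.0439) and Hif1a (0.50, adjusted p = 0.0134) higher and Dnmt3a and Rictor lower. The 18 protein partners of Foxp3 had a median of -0.02, with Crebbp, an acetyltransferase, at -0.35 (adjusted p = 0.238) and Hdac2, a deacetylase, at 0.13 (adjusted p = 0.390). Crebbp was called lower with replicates 2 and 3 alone (-0.47, adjusted p = 0.0253). With replicate 1 as a term, Ets1 (adjusted p = 0.0126), Runx3 (0.0146), Akt1 (0.0189), Hif1a (0.00243) and Crebbp (0.0472) were called, beside 13.1% of all genes.

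Of 8 genes known to be lower in Treg than in conventional CD4+ T cells, 6 had negative log2 fold changes and 2 positive ones, with a median of -0.40 and no call. The values ran from -0.80 to 0.97. Pde3b, a phosphodiesterase that Foxp3 represses, was at 48.8, 77.9 and 87.8 CPM in WT and at 34.9, 46.8 and 39.8 CPM in Cul5 cKO, without overlap (-0.80, SE 0.21, adjusted p = 0.112). Satb1, a chromatin organizer also counted above among the inducers of Foxp3, was at 79.9, 134 and 147 CPM in WT and at 72.7, 96.0 and 78.2 CPM in Cul5 cKO (-0.54, SE 0.22, adjusted p = 0.225), which overlapped through WT replicate 1. With replicates 2 and 3 alone both were called lower, at -0.92 (adjusted p = 0.0135) and -0.68 (adjusted p = 0.0263), beside 8.83% of all genes.

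Partners of the single genes of the set gave no call in the fit on genotype alone. The 21 partners and degraders of Ikaros proteins had a median of 0.01, with Mbd3, a subunit of the NuRD repressor, at 0.26 (adjusted p = 0.111) and Crbn, the receptor through which thalidomide-like drugs direct Ikaros and Aiolos to degradation in human cells, at -0.21 (adjusted p = 0.142). The 9 tested genes of GARP and latent TGF-β had a median of 0.24, led by Hsp90b1, the chaperone of GARP (0.28, adjusted p = 0.137), and Furin, which cleaves the TGF-β precursor (0.46, adjusted p = 0.189). Of the 9 tested neuropilin ligands and partners, Nrp2 showed the lowest p. Nrp2, the second neuropilin, was at 35.5, 16.2 and 16.7 CPM in WT and at 97.7, 69.6 and 68.3 CPM in Cul5 cKO, without overlap. Its log2 fold change was 1.73 (SE 0.31, adjusted p = 0.0562) in the fit on genotype alone and 2.08 (SE 0.08, adjusted p = 0.000725) with replicates 2 and 3 alone, where it was called. Plxna1, a semaphorin co-receptor, was at 0.29 (adjusted p = 0.112). The actin-capping and gelsolin family had a median of 0.14 over 9 genes, with Twf1 (0.28, adjusted p = 0.112) and Svil (0.23, adjusted p = 0.211) next to Capg. The value of Svil was 0.06 with counts scaled from TPM and 0.00401 to 0.0270 in the limma fits. The folate transporters Slc46a1 and Slc19a1 were at 0.44 (adjusted p = 0.187) and 0.26 (adjusted p = 0.421). With replicates 2 and 3 alone, Hsp90b1 (0.37, adjusted p = 0.0386), Mbd3 (0.30, adjusted p = 0.0398) and Vegfa were also called higher and Gatad2b and Itgb8 lower. With replicate 1 as a term, Nrp2 (adjusted p = 0.000751), Mbd3 (0.0296), Furin (0.0275), Twf1 (0.0316), Plxna1 (0.0373), Svil (0.0376) and Crbn (0.0484) were called. That fit called 13.1% of all genes. Over all lists with replicates 2 and 3 alone, 11 genes were called higher and 14 lower of 131 tested, beside 8.83% of all genes.

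**Figure D5:**
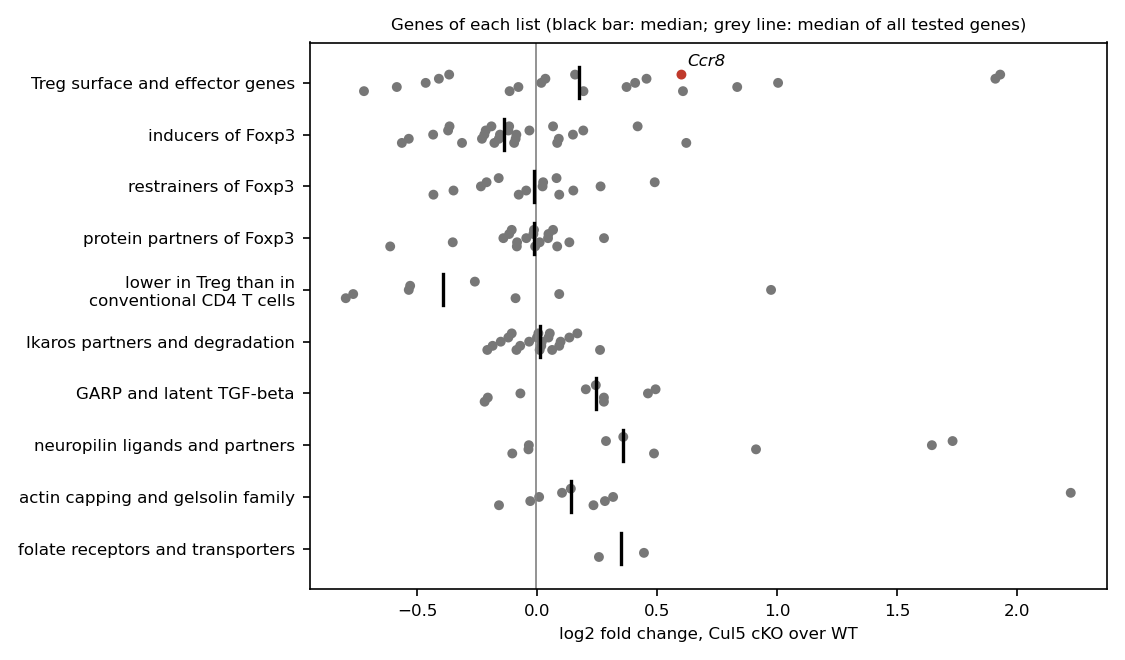
Log2 fold change of Cul5 cKO over WT (x axis) for each tested gene (points) of 10 gene lists (y axis), with the median of each list as a black bar and that of all tested genes as a grey line. Ccr8 (0.60, red) is the list gene with an adjusted p under 0.05, and list medians run from -0.40 to 0.36.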

How the data were processed

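RNA of 3 WT and 3 Cul5 cKO day 2 Th9 cultures was sequenced by the authors as poly-A libraries on a BGIseq500 with single-end 50 bp reads. Per the labels and methods, the authors ran kallisto 0.46.2 against Ensembl GRCm38 transcripts and deposited its estimated counts, which are not normalized, and its TPM per transcript, which are scaled to length and depth. They also deposited a table of TMM-normalized log2 CPM (edgeR 3.34.0) with fold changes and p-values of their own comparison, which were not used. Of 119414 transcripts, 116640 (97.68%) were matched to GENCODE vM21 and summed to 35896 genes. Unmatched transcripts held 0.958 to 1.04% of counts. Sums were rounded and tested in R 4.3.3 with edgeR 4.0.16 (default expression filter, TMM, quasi-likelihood test, Benjamini-Hochberg over 12925 genes, threshold 0.05). The fits of edgeR, DESeq2 and limma on genotype alone were run on counts simulated with a fixed dispersion and no shift of any replicate. Fits with replicate terms or fewer libraries were not run on simulated counts. Alternatives used DESeq2 1.42.0, limma 3.58.1 (pseudocounts of 1 and 0.1 for TPM), other scalings and filters, and subsets of libraries. The exact permutation test is two-sided, on log2(CPM + 1) for gene levels and on untransformed percent shares for transcripts. The 10 genes and the lists were chosen with earlier results of these data known. Named list genes are those called and the 2 with the lowest p in each list. Likeness to Foxp3 named 3 genes. Transcripts were searched with blastn for other genes sharing at least 150 bases at 95% identity, which found only Ccdc22, Flicr and Ppp1r3f, all overlapping Foxp3. Promoter sequences are from RefSeq (GRCm38.p6). Other steps used Python 3.11.15 (scipy 1.17.1, pandas 2.3.3, numpy 2.4.6).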

Additional observations from a re-analysis of the deposited data

How the results depend on the processing

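Over all genes, the 133 calls became 748 with DESeq2, 228 with no filter, 19 with counts scaled from TPM, 42, 33 and 37 with limma on the table of the authors, on log2(TPM + 1) and on log2(TPM + 0.1), 2753 at an unadjusted p, 1688 with replicate 1 as a term and 1153 with replicates 2 and 3 alone, and 2 to 316 with single libraries left out. Of the calls, 79 were higher and 54 lower, against 72 and 77 when scaled by library size alone. Among the 10 genes, the count of 1 became 0 with counts scaled from TPM and in the 3 limma fits, 3 at an unadjusted p, 3 with replicate 1 as a term, 3 with replicates 2 and 3 alone, and 0 to 1 with single libraries left out. Among list genes, the count of 1 became 11 with DESeq2, 2 with library size alone, 2 with at least 10 counts in every sample, 3 with no filter, 0 with counts scaled from TPM and in the 3 limma fits, 31 at an unadjusted p, 28 with replicate 1 as a term, 25 with replicates 2 and 3 alone, 4 with libraries thinned to WT replicate 3, and 0 to 12 with single libraries left out. The thinned fit tests 10463 genes. Otherwise, the cause of these changes was not tested.

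Signs turned for Foxp3 (-0.14 without Cul5 cKO replicate 1), for Ikzf1 (0.00958 with counts scaled from TPM) and for Ikzf2 (0.10 with replicates 2 and 3 alone, 0.0304 when thinned, 0.12 without WT replicate 2 and 0.24 without Cul5 cKO replicate 1). With single libraries left out, Foxp3 ran from -0.14 to 0.27 and Ikzf2 from -0.20 to 0.24. Of 190 log2 fold changes under an alternative, 170 kept their direction and side of the threshold. The 8 of Capg that missed the threshold had log2 fold changes of 0.37 to 0.43. By level, Foxp3 was number 4 of the 10 genes in TPM and number 3 in CPM.

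The labels link libraries with the same number only by that number. Their deviations from the group means correlated at 0.493, 0.275 and 0.0327 for numbers 1, 2 and 3, and WT replicate 2 correlated better with Cul5 cKO replicate 3 (0.298) and WT replicate 3 with Cul5 cKO replicate 2 (0.166) than with their own number. With the replicate block, 848 genes were called in all, 3 of the 10 genes (Capg, Gpr83 and Izumo1r) and 16 list genes. Of the 10 genes, Ikzf2 had the fewest counts, 26 in WT replicate 3, and its SE was 0.27 on the log2 scale with the other 5 libraries thinned to the total count of that library, against 0.29 without thinning.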
